A study of Mus musculus with 2207 samples.

Results

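A set of 7 genes of the GABA-A receptor was followed through single nuclei of mouse brain cortex: Gabra2, Gabra3, Gabra4, Gabra5, Gabrb1, Gabrb2 and Gabrd. They were chosen by symbol, and all 7 were found among the 52636 genes of the expression tables of 96-well and 384-well plates. RamDA-seq, a full-length total-RNA method, had been applied to 2207 nuclei in 6 pools, each from 3 C57BL/6 mice of 14 weeks of age. These mice had received tamoxifen 2 times, each at 100 mg/kg, from 3 weeks of age. The study's methods give a weekly interval between the doses. The 96-well pools were wild type (Ehmt1+/+) and Ehmt1delta/+, which lacks 1 functional copy of Ehmt1, the gene of the histone methyltransferase GLP. The 384-well pools were Ehmt1+/+ and Ehmt1delta/+, both per the labels carrying the silent Ehmt1 iTg transgene without CamKII-CreER, and the same genotypes with Ehmt1 iTg and CamKII-CreER, in which tamoxifen switches on FLAG-tagged GLP in forebrain neurons. The labels were followed here, while a figure legend of the study gives CamKII-CreER for all of its genotypes. Whether the 384-well contrast is the Cre driver with an active transgene against neither, or an active transgene against the driver alone, therefore cannot be told apart. By their labels, the pools are called WT, Ehmt1delta/+, iTg and Ehmt1delta/+; iTg below. The mice of a pool are not told apart by the labels, so the pool was the replicate and p-values measure the spread between pools. Levels were given as the mean RPKM of the nuclei of a class in a pool, reads scaled to exon length and library size, a unit that allows levels of different genes to be set side by side.

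GABA-A receptors are pentameric chloride channels opened by GABA, and most hold α and β subunits together with a γ or a δ subunit. The α subunit sets much of a receptor's pharmacology and place: α2 and α3 are mostly synaptic, α5 is largely extrasynaptic, and α4 in the forebrain pairs with δ in extrasynaptic receptors that carry tonic inhibition. GABA binds between α and β subunits, and the β subunits also bind trafficking and scaffold proteins. The gene products are α2 to α5 (Gabra2, Gabra3, Gabra4, Gabra5), β1 and β2 (Gabrb1, Gabrb2) and δ (Gabrd).

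In mm10, Gabra2 (chr5:70957597-71095849), Gabra4 (chr5:71569749-71658308) and Gabrb1 (chr5:71658113-72149037) lay in 1 stretch of chromosome 5, with Gabra4 and Gabrb1 on opposite strands and their starts overlapping. Their exons shared 46 bases, and reads from there cannot be assigned with certainty. Gabra5 was on chr7:57407672-57510059 and shared exonic bases with the antisense gene Gm9962. The study's methods name default counting settings, which count whole reads and do not use strand. Fractions of reads were present in the values, so these settings were not used alone. How reads from the shared bases were assigned to Gabra5 or Gm9962 cannot be told. Between 16.8% and 28.7% of the neuron values of Gabra5 above 0 were not whole numbers of reads, against at most 7.12% for each of the other members. Gabra3 (chrX:72432681-72656848), Gabrb2 (chr11:42419757-42629028) and Gabrd (chr4:155384980-155398112) stood apart from the others.

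Promoters are shown for Gabra2 and Gabra5, which went opposite ways between the upper-layer and deep-layer subclasses described below. Each run is the 250 bases before the start site of RefSeq (GRCm38.p6), 5′ to 3′ on the gene's strand, and capitals mark CG dinucleotides.
Gabra2 (chr5:71095850-71096099, minus strand): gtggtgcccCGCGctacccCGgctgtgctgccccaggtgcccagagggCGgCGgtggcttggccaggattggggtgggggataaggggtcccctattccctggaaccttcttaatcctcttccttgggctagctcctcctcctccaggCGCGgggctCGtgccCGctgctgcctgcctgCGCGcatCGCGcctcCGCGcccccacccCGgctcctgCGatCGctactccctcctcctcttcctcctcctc
Gabra5 (chr7:57510060-57510309, minus strand): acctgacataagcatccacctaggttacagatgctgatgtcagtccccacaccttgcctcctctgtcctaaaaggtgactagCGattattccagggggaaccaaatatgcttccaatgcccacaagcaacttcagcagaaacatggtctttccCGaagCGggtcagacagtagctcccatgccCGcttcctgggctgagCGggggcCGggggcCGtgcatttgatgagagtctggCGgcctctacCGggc
The letters CG, which read the same on both strands, stood 18 times before Gabra2 and 9 times before Gabra5, against a median of 6 over 32851 promoters of the same length. At least as many were found in 21.7% of all promoters for Gabra2 and in 40.3% for Gabra5.

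Nuclei annotated by the authors as neurons numbered 1664. With the larger of Slc17a7, the vesicular glutamate transporter of excitatory neurons, and Gad1, a GABA-synthesising enzyme, 1324 were classed as excitatory, 7 as neither and the others, 43 to 73 per pool, as inhibitory. Genes that this rule did not use went with it: Neurod6 was at 7.75 RPKM in excitatory and 0.195 RPKM in inhibitory nuclei, and Gad2 at 0.477 and 44.9 RPKM, respectively. The inhibitory share was 24.5%, 16.3%, 25.8%, 17%, 19.4% and 17.9% in 96-well WT, 96-well Ehmt1delta/+, 384-well WT, 384-well Ehmt1delta/+, iTg and Ehmt1delta/+; iTg, with exact 95% intervals reaching from 12.1% to 31.3% over the pools. Median depth was 333929 to 406930 reads in excitatory and 246009 to 369384 in inhibitory nuclei. The 96-well WT pool stood apart, since Gad1 was above 0 in 64.9% of its excitatory nuclei and 57.5% of its oligodendrocytes, against 9.09% to 28.2% and 6.52% to 33.8% in the other pools. In the 96-well Ehmt1delta/+ pool, the markers of oligodendrocyte precursors summed to 27.9 RPKM in inhibitory nuclei, against 0.278 RPKM without 2 of the 43 nuclei, which fell in its Pvalb and Lamp5 subclasses. No nucleus name was shared between pools, and no profile was identical to another. Ehmt1 RNA was higher, not lower, in excitatory nuclei of each pool labelled Ehmt1delta/+ (30.5, 30.6 and 34 RPKM against 17.8, 18.7 and 20.3 RPKM). The value is summed over the whole gene, so it is no check of these labels.

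The 7 members were neuronal genes in these nuclei. Gabrd was the most abundant, with 22.8 ± 4.99 RPKM in excitatory and 25.7 ± 4.41 RPKM in inhibitory neurons (mean ± SD, n = 6 pools). Gabrb2 followed with 13.4 ± 6.20 and 14.5 ± 8.32 RPKM, Gabra4 with 11.1 ± 3.03 and 9.74 ± 3.13 RPKM, and Gabra2 with 8.24 ± 3.08 and 7.39 ± 3.57 RPKM. The lower levels were those of Gabrb1 (6.91 ± 3.68 and 5.30 ± 3.40 RPKM), Gabra5 (6.03 ± 1.39 and 3.57 ± 0.895 RPKM) and Gabra3 (4.38 ± 1.5 and 5.44 ± 2.52 RPKM). The levels differed with the plate format. In WT and Ehmt1delta/+ excitatory neurons, the mean of the 96-well pools was 2.64 times that of the 384-well pools for Gabrb1, 2.36 times for Gabrb2 and between 1.51 and 1.96 times for the 4 α genes. Gabrd went the other way, with a ratio of 0.609. Levels were therefore compared within pools or within plate formats.

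**Figure D1:**
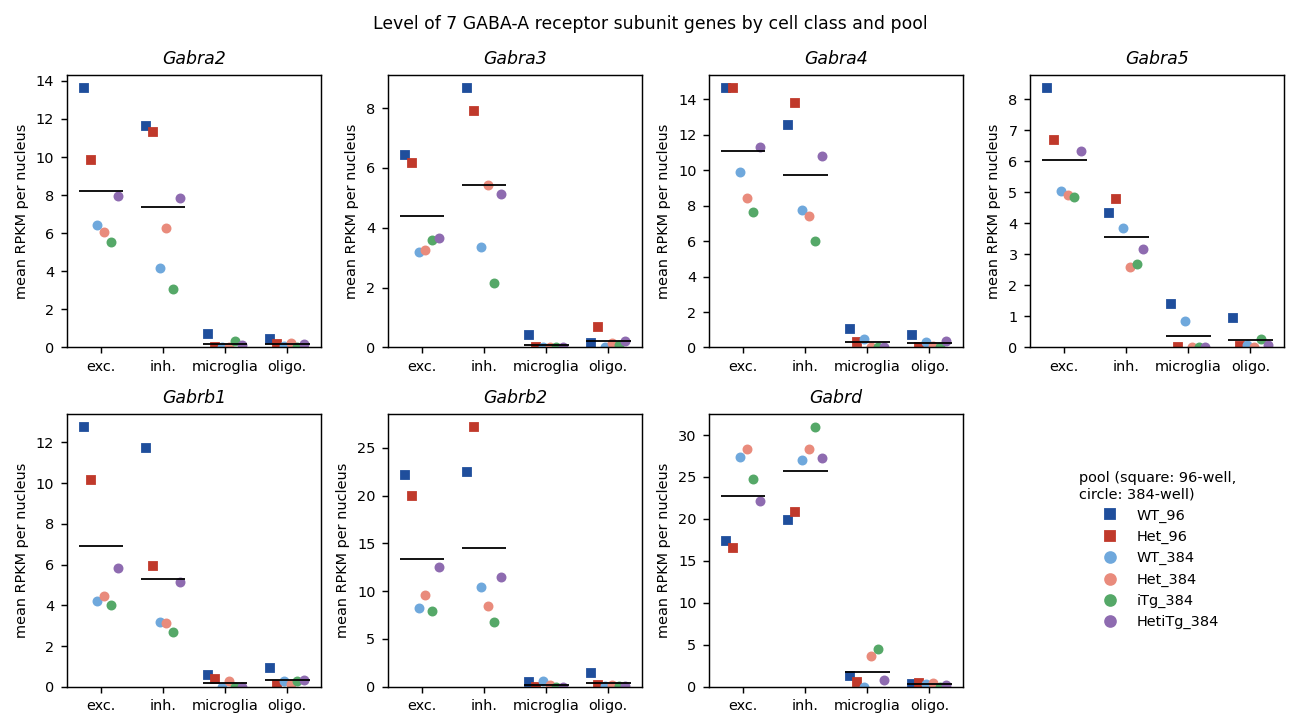
Mean RPKM per nucleus (y axis, linear, from 0) of each gene in excitatory neurons, inhibitory neurons, microglia and oligodendrocytes (x axis), with 1 symbol per pool (squares, 96-well; circles, 384-well) and a black line at the mean of 6 pools. Neuronal levels are far above glial ones for all 7 genes, and Gabrd is the only one whose 96-well pools lie lowest in both neuron classes.

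In microglia, the resident immune cells, and oligodendrocytes, the myelin-forming cells, most nuclei held no read of a member. Mean levels over the 6 pools were 0.0706 to 0.378 RPKM in microglia for 6 members, and 1.81 RPKM for Gabrd, whose pool values were 1.30, 0.583, 0, 3.70, 4.52 and 0.767 RPKM from between 0 and 3 nuclei with a value above 0 per pool. Oligodendrocytes held 0.199 to 0.352 RPKM of each member. The highest glial share was that of Gabrb2 in 96-well WT oligodendrocytes, 18 of 73 nuclei (24.7%, exact 95% interval 15.3% to 36.1%), while the other 5 pools had 1.41% to 4.35%. This was the pool with Gad1 in 57.5% of its oligodendrocytes, and the part of such RNA in the glial values was not tested. Gabra3 was above 0 in no microglial nucleus of 5 pools, and 0 of 16 nuclei in 384-well WT allows a share of up to 18.8%. Median depth of glia in the 384-well pools was 39940 to 54877 reads, and low levels were not detectable at this depth. Cell types had been set by the authors on clusters of these nuclei, and the difference between neurons and glia is given as a description with no test.

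Excitatory neurons held more Gabra5, Gabrb1 and Gabra4 than inhibitory neurons of the same pool. These were 3 of 7 members past an adjusted p of 0.05 by limma, all lower in inhibitory neurons, where 21.1% of all 22422 genes tested were called lower and 44% were called in either direction. In excitatory neurons Gabra5 was at 8.37, 6.69, 5.04, 4.92, 4.84 and 6.32 RPKM in 96-well WT, 96-well Ehmt1delta/+, 384-well WT, 384-well Ehmt1delta/+, iTg and Ehmt1delta/+; iTg. In inhibitory neurons the values in the same order were 4.33, 4.78, 3.86, 2.60, 2.69 and 3.16 RPKM. Gabra5 was thus higher in excitatory neurons in 6 of 6 pools, by 1.68-fold (difference −0.75 ± 0.10 in log2(RPKM + 0.1), SE, adjusted p = 0.000995), and the ranges of the pool values of both classes did not overlap. The exact two-sided sign-flip test over 6 pools gave p = 0.03125, the smallest value that 6 pools can give.

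Gabrb1 was at 12.8, 10.2, 4.23, 4.45, 4.02 and 5.83 RPKM in excitatory and 11.7, 5.91, 3.19, 3.13, 2.69 and 5.17 RPKM in inhibitory neurons, in the same order of pools. Each pool had more in excitatory neurons, by 1.34-fold on average (−0.42 ± 0.10, adjusted p = 0.0125 by limma). For Gabra4 the excitatory values were 14.7, 14.7, 9.90, 8.42, 7.68 and 11.3 RPKM and the inhibitory ones 12.6, 13.8, 7.77, 7.44, 5.99 and 10.8 RPKM. The excitatory value was higher in 6 of 6 pools but by only 1.15-fold (−0.21 ± 0.07, adjusted p = 0.0457 by limma), and the call was lost when any 1 pool was left out (adjusted p = 0.0532 to 0.122 by limma). It was also lost without the 2 nuclei with precursor markers (−0.20, adjusted p = 0.0630 by limma). The exact sign-flip p was 0.03125 for both genes. Within the 96-well and the 384-well pools, the differences were −0.71 and −0.77 for Gabra5, −0.45 and −0.41 for Gabrb1, and −0.15 and −0.23 for Gabra4.

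Gabra2, Gabra3, Gabrb2 and Gabrd did not pass the test between the classes. The differences were −0.24 ± 0.15 for Gabra2, 0.23 ± 0.18 for Gabra3, 0.05 ± 0.11 for Gabrb2 and 0.19 ± 0.08 for Gabrd, with adjusted p of 0.233, 0.341, 0.754 and 0.0915 by limma. For Gabra2 the difference was −0.0127 in the 96-well and −0.35 in the 384-well pools, and −0.12 without the iTg pool. Gabra3 was higher in inhibitory neurons in 5 pools and lower in iTg (2.17 against 3.58 RPKM), and without the iTg pool it was called higher in inhibitory neurons (0.41, adjusted p = 0.0241 by limma). Gabrd was spread differently over the nuclei of both classes. In excitatory neurons it was above 0 in 85.5% to 92.9% of nuclei, and in inhibitory neurons in only 52% to 62.8%. After thinning to equal depth the shares were 85.3% to 91% and 53.4% to 61.8%. When log2 values were averaged over nuclei in place of RPKM, the Gabrd difference turned to −0.88 (adjusted p = 6.71e-05 by limma), that of Gabrb2 to −0.27 (adjusted p = 0.0437) and that of Gabra2 to −0.49 (adjusted p = 0.00229), so all 3 were called lower in inhibitory neurons. On this scale 6115 of all 22422 genes tested were called lower, against 4736 in the main test. The median difference over all genes went from 0.02 to −0.02, a smaller move than that of each of these 3 members.

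**Figure D2:**
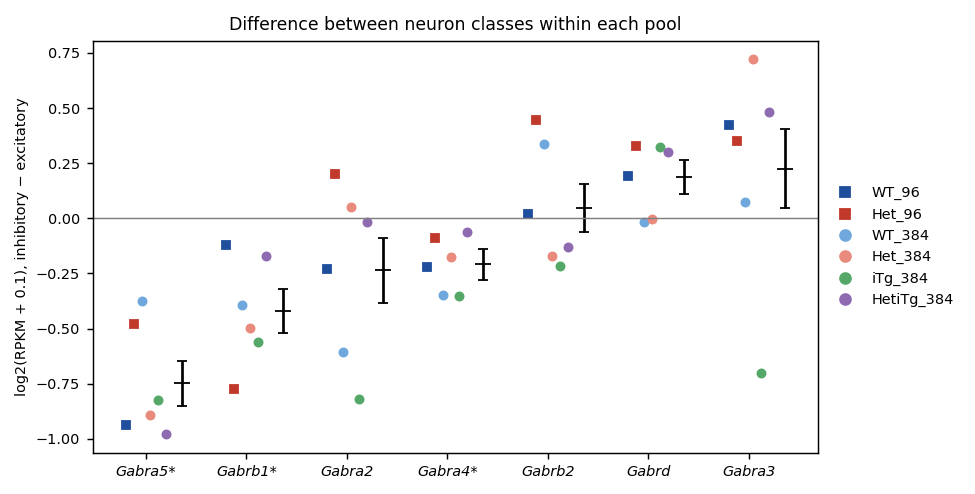
Difference in log2(RPKM + 0.1) between inhibitory and excitatory neurons (y axis) for each gene (x axis), with 1 symbol per pool and the limma estimate ± SE in black; an asterisk marks an adjusted p of at most 0.05. All 6 pools lie below 0 for Gabra5, Gabrb1 and Gabra4, while pools fall on both sides of 0 for the other 4 genes.

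Among the 4 α genes, Gabra4 and Gabra2 took like shares in both classes. Gabra4 made up 37.5 ± 2.42% of the summed α level in excitatory and 38 ± 3.74% in inhibitory neurons (mean ± SD, n = 6 pools), and Gabra2 27.3 ± 2.22% and 27.2 ± 4.13%. Gabra5 made up 20.6 ± 1.67% and 14.6 ± 4.01%, and Gabra3 14.6 ± 1.71% and 20.2 ± 3.52%. The sum covers these 4 genes alone and was not tested.

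Each class was then divided by its leading marker. Excitatory nuclei were assigned by the highest of Cux2 (upper layers), Rorb (layer 4), Fezf2 (deep layers) and Foxp2 (layer 6), which placed 1242 of 1324. Inhibitory nuclei were assigned by the highest of Pvalb, Sst, Vip and Lamp5, the markers of the main interneuron groups, of which the 4 groups held 3 to 23 nuclei per pool. The names below stand for the leading gene alone, and the markers overlapped. Foxp2 was above 0 in 53.8% to 60% of Fezf2 nuclei per pool, and Rorb in 53.2% to 65.7% of Cux2 nuclei. Pvalb was above 0 in 11.8% to 56.5% of Sst nuclei, and Sst in 0% to 50% of Pvalb nuclei. Lamp5 was at 18.8 RPKM in excitatory and 11.9 RPKM in inhibitory neurons. A marker could lead at any value above 0. A subclass was compared with the other subclasses of its class within each pool, and the 3 Vip nuclei of 96-well Ehmt1delta/+ were too few to enter. Of 56 tests 17 were called, 7 higher and 10 lower in the subclass. Cux2 and Fezf2 nuclei numbered 582 and 436 over all pools, each most of the other's comparison group. Their tests are therefore not independent. Called members numbered 5 of 7 in Fezf2 nuclei (24.7% of all genes tested were called there), 4 in Cux2 (22.6%), 3 in Sst (5.22%), 2 in Pvalb (15.7%), 2 in Lamp5 (9.74%), 1 in Foxp2 (5.89%), and none in Rorb (2.52%) or Vip (4.56%). At an unadjusted p under 0.05, 1 member passed in Rorb nuclei (16.7% of all genes) and 3 in Vip nuclei (20.9%). Adjusted p-values of the subclasses are those of limma over all genes tested. The median difference of all genes was −0.23 in Vip, −0.17 in Foxp2 and −0.11 in Lamp5 nuclei on the log2 scale, and the values below are not corrected for it. In 96-well Ehmt1delta/+, the precursor markers Pdgfra and Cspg4 reached 38.2 and 27.6 RPKM in Pvalb nuclei and 24.7 and 18.8 RPKM in Lamp5 nuclei. Without the 2 nuclei that held them, all 17 calls were kept and none was gained.

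**Figure D3:**
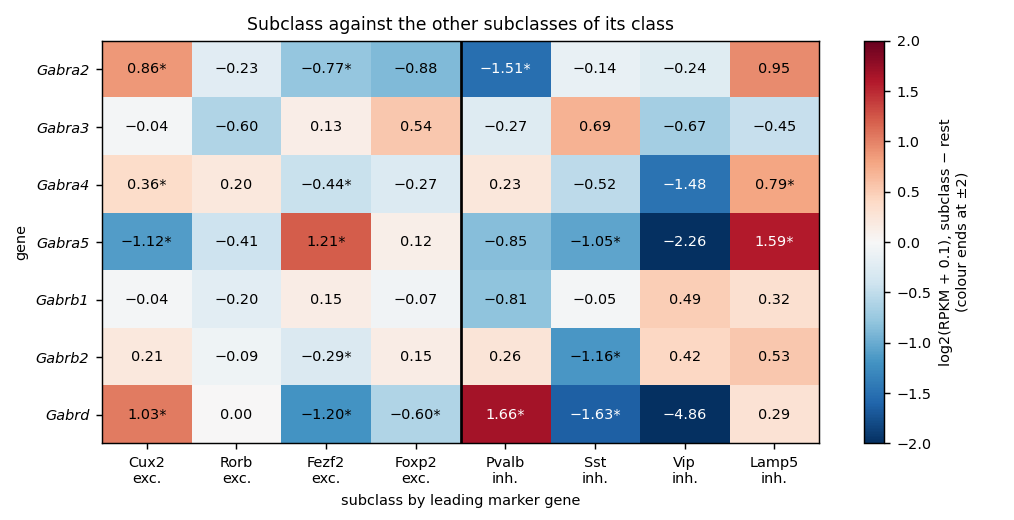
Difference in log2(RPKM + 0.1) between a subclass and the other subclasses of its class, as colour and number, for 7 genes (rows) and 8 marker-defined subclasses (columns, excitatory left and inhibitory right of the black line); an asterisk marks an adjusted p of at most 0.05, and colour ends at ±2. In excitatory neurons Gabra5 has the opposite sign to Gabrd and Gabra2 in Cux2 and Fezf2 nuclei.

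Gabrd, the δ subunit of tonic-current receptors, differed between subclasses of both classes. In Pvalb nuclei, mostly fast-spiking interneurons, it stood at 37.5, 55.2, 66.1, 60.1, 54.9 and 65.8 RPKM in 96-well WT, 96-well Ehmt1delta/+, 384-well WT, 384-well Ehmt1delta/+, iTg and Ehmt1delta/+; iTg. The other inhibitory subclasses together averaged 18.2 ± 5.19 RPKM (SD, n = 6 pools), and Pvalb nuclei were 3.16-fold higher (1.66 ± 0.19, adjusted p = 0.00401). Sst nuclei held 17.9, 10.9, 8.01, 16.4, 15.2 and 4.85 RPKM, a 3.09-fold lower level than the rest (−1.63 ± 0.31, adjusted p = 0.0305). Between 27.3% and 52.9% of Sst nuclei had a Gabrd value above 0, against 76.9% to 100% of Pvalb and 66.7% to 88.9% of Lamp5 nuclei. The inhibitory class was thus a mixture of nuclei with much Gabrd and nuclei with none detected.

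Vip nuclei had the least Gabrd, with 1.42, 9.18, 2.98, 0 and 0.327 RPKM in 96-well WT, 384-well WT, 384-well Ehmt1delta/+, iTg and Ehmt1delta/+; iTg. The rest averaged 32.9 ± 4.5 RPKM (SD, n = 5 pools). This difference missed the threshold (adjusted p = 0.0529) and passed it with a pseudocount of 1 (adjusted p = 0.00726). Only 5 to 10 Vip nuclei stood behind each of these values, and their median depth fell to 150409 reads in 1 pool. In Lamp5 nuclei Gabrd was 33.7 ± 13.7 RPKM and did not pass the test (0.29 ± 0.23, adjusted p = 0.462).

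Among excitatory neurons Gabrd was higher in Cux2 nuclei, with 23.8, 23.2, 36.1, 39.4, 34.7 and 31.4 RPKM, than in Fezf2 nuclei, with 10.7, 9.05, 13.8, 15.2, 14.3 and 11.4 RPKM. The values of both subclasses did not overlap. Against the other excitatory subclasses, Cux2 nuclei were 2.05-fold higher (1.03 ± 0.08, adjusted p = 0.000253) and Fezf2 nuclei 2.30-fold lower (−1.20 ± 0.07, adjusted p = 0.000140), each in 6 of 6 pools. Foxp2 nuclei were 1.52-fold lower (−0.60 ± 0.13, adjusted p = 0.0491), a call that was lost without the 96-well WT pool (adjusted p = 0.144). Over all 8 subclasses, by the mean of the log2 levels of the 5 pools with a Vip value, Gabrd ran from Pvalb through Lamp5, Cux2, Rorb, Foxp2, Fezf2 and Sst to Vip. Pvalb over Lamp5, Cux2 over Rorb and Foxp2 over Fezf2 held in 6 of 6 pools, Lamp5 over Cux2 in 3 of 6, Rorb over Foxp2 in 5 of 6, Fezf2 over Sst in 2 of 6 and Sst over Vip in 4 of 5. These neighbours were not tested against each other.

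Gabra5 went the other way from Gabrd in Cux2 and Fezf2 nuclei. Fezf2 nuclei held 13.7, 10.01, 7.85, 7.41, 7.11 and 9.39 RPKM in 96-well WT, 96-well Ehmt1delta/+, 384-well WT, 384-well Ehmt1delta/+, iTg and Ehmt1delta/+; iTg. Cux2 nuclei held 5.93, 4.52, 2.82, 2.66, 2.5 and 3.52 RPKM in the same order, below the Fezf2 value in every pool. Against the rest, Gabra5 was 2.31-fold higher in Fezf2 (1.21 ± 0.07, adjusted p = 0.000143) and 2.17-fold lower in Cux2 nuclei (−1.12 ± 0.11, adjusted p = 0.000721). Of the sum of the 4 α genes, Gabra5 made up 33 ± 2.70% in Fezf2 nuclei, beside 31.7 ± 3.29% of Gabra4, and 11.6 ± 0.320% in Cux2 nuclei (mean ± SD, n = 6 pools).

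In inhibitory neurons Gabra5 was highest in Lamp5 nuclei, a group that includes neurogliaform cells. The Lamp5 values were 7.47, 7.39, 8.78, 5.11, 9.06 and 5.68 RPKM, against 2.42 ± 0.938 RPKM in the rest (SD, n = 6 pools), a 3.01-fold difference (1.59 ± 0.25, adjusted p = 0.0122). Sst nuclei were 2.08-fold lower (−1.05 ± 0.21, adjusted p = 0.0349; 0.0546 without the 96-well WT pool), with 3.38, 3.21, 2.23, 2.35, 1.46 and 0.903 RPKM. Pvalb (2.89 ± 1.98 RPKM) and Vip nuclei (1.52 ± 1.54 RPKM, n = 5 pools) did not pass the test. In the order of the 8 subclasses Fezf2 led, followed by Lamp5, Foxp2, Rorb, Cux2, Sst, Pvalb and Vip, and only Cux2 over Sst held in 6 of 6 pools among neighbours.

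**Figure D4:**
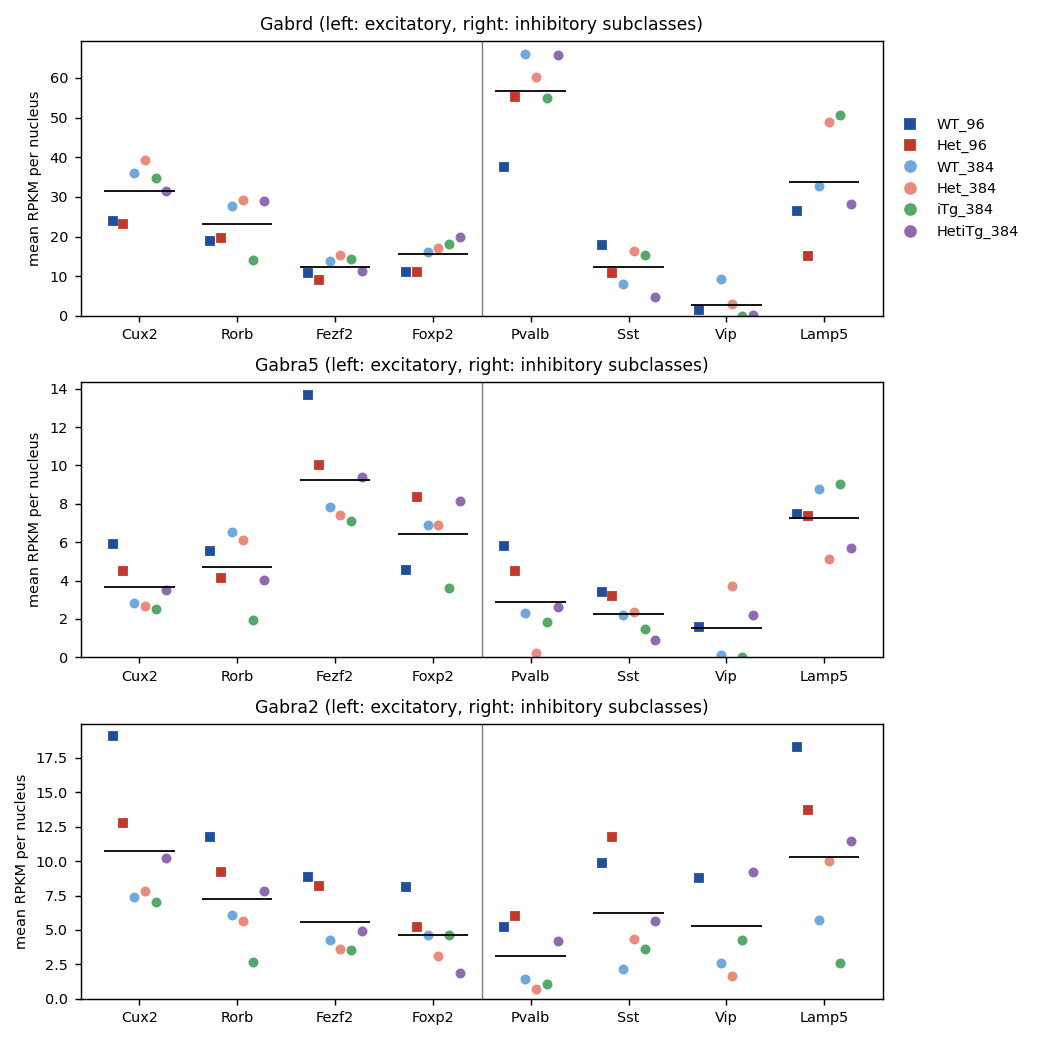
Mean RPKM per nucleus (y axes, linear, from 0) of Gabrd, Gabra5 and Gabra2 in 8 marker-defined subclasses (x axis), with 1 symbol per pool of at least 5 nuclei and a black line at their mean. Gabrd is highest in Pvalb and lowest in Vip nuclei, Gabra5 is highest in Fezf2 and Lamp5 nuclei, and Gabra2 is highest in Cux2 and Lamp5 nuclei.

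Gabra2 took the direction of Gabrd in Cux2 and Fezf2 nuclei and the opposite one in Pvalb nuclei. Cux2 nuclei held 19.1, 12.8, 7.41, 7.85, 7.02 and 10.2 RPKM in 96-well WT, 96-well Ehmt1delta/+, 384-well WT, 384-well Ehmt1delta/+, iTg and Ehmt1delta/+; iTg, and Fezf2 nuclei 8.83, 8.20, 4.26, 3.61, 3.58 and 4.92 RPKM. Within each pool the Cux2 value was higher. Cux2 nuclei were 1.82-fold above the other excitatory subclasses (0.86 ± 0.07, adjusted p = 0.000287), and Fezf2 nuclei 1.70-fold below them (−0.77 ± 0.09, adjusted p = 0.00109). Pvalb nuclei held 5.22, 6.01, 1.42, 0.732, 1.10 and 4.17 RPKM, lower than the rest in 6 of 6 pools and 2.86-fold on average (−1.51 ± 0.25, adjusted p = 0.0107). Among inhibitory subclasses, Pvalb thus had the highest mean of Gabrd and the lowest of Gabra2. Lamp5 nuclei had 10.3 ± 5.59 RPKM of Gabra2 and missed the threshold (0.95 ± 0.26, adjusted p = 0.0635).

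Gabra4, which encodes a forebrain partner of δ, took the direction of Gabrd in Cux2 and Fezf2 nuclei, with smaller differences. RNA levels do not show which subunits pair in a cell. It was 12.7 ± 3.96 RPKM in Cux2 nuclei (0.36 ± 0.06 against the rest, adjusted p = 0.00590) and 8.92 ± 2.42 RPKM in Fezf2 nuclei (−0.44 ± 0.06, adjusted p = 0.00235), in 6 of 6 pools each. Lamp5 nuclei held 24.4, 17.3, 9.03, 13.6, 9.91 and 13.3 RPKM and were 1.73-fold higher than the other inhibitory subclasses (0.79 ± 0.20, adjusted p = 0.0498; 0.122 without the 96-well WT pool). In Pvalb nuclei, where Gabrd was highest, Gabra4 was 11 ± 2.82 RPKM and did not pass the test (0.23 ± 0.12, adjusted p = 0.263). Gabra4 made up 53.2 ± 9.22% of the sum of the 4 α genes there, a sum that does not cover every α gene. Vip nuclei had the lowest Gabra4, 4.14 ± 2.28 RPKM (n = 5 pools), below Sst nuclei in 5 of 5 pools, with an adjusted p of 0.136 against the rest.

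Gabra3 passed in no subclass. Its highest levels were 7.03 ± 3.11 RPKM in Sst nuclei (0.69 ± 0.18 against the rest, higher in 6 of 6 pools, adjusted p = 0.0733; 0.0396 with a pseudocount of 1) and 6.70 ± 3.81 RPKM in Foxp2 nuclei (0.54 ± 0.17, adjusted p = 0.127). Its lowest was 2.96 ± 0.788 RPKM in Rorb nuclei (−0.60 ± 0.15, lower in 6 of 6 pools, adjusted p = 0.0948). No neighbours in its order were separated in every pool.

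Of the β genes, Gabrb1 was between 6.74 and 7.37 RPKM in Cux2, Fezf2 and Foxp2 nuclei and at 5.91 RPKM in Rorb nuclei, and passed in no subclass. Its lowest level was 3.55 ± 2.82 RPKM in Pvalb nuclei, lower than the rest in 6 of 6 pools (−0.81 ± 0.23, adjusted p = 0.0523; 0.0292 with a pseudocount of 1). Gabrb2 was 1.22-fold lower in Fezf2 nuclei (11.6 ± 5.09 RPKM, −0.29 ± 0.08, adjusted p = 0.0402; 0.0821 without the 96-well WT pool). It was lowest in Sst nuclei, with 21.9, 18.4, 5.05, 3.84, 4.08 and 3.87 RPKM, 2.23-fold below the other inhibitory subclasses (−1.16 ± 0.23, adjusted p = 0.0362). Of the neighbours on chromosome 5, Gabra4 passed in Cux2, Fezf2 and Lamp5 nuclei and Gabrb1 in none; the difference between the genes was not tested. In the orders of Gabrb1 and Gabrb2, no neighbours were separated in 6 of 6 pools.

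The effect of the Ehmt1 genotype was tested within each neuron class across both plate formats. In the 384-well format, WT had a plate code of its own, while the other pools shared another. Genotype and plate code therefore cannot be told apart in the 384-well values of either class. No member passed, and neither did any other gene (0% of 23780 genes tested in excitatory and 0% of 23242 in inhibitory neurons by limma; 8.95% and 5.77% at an unadjusted p under 0.05). In excitatory neurons, the differences between the pools labelled Ehmt1delta/+ and WT lay between −0.28 and 0.03 in log2(RPKM + 0.1), with SE of 0.11 to 0.15 and adjusted p of at least 0.656. Gabra2 had the largest, −0.28 ± 0.15, with 13.7 RPKM in WT against 9.82 RPKM in Ehmt1delta/+ in 96-well plates and 6.42 against 6.07 RPKM in 384-well plates. The 3 plate codes that both 96-well pools shared are parts of these pools and not replicates. Gabra2 was lower in the nuclei labelled Ehmt1delta/+ in each of them. With all 6 pools in the fit, its difference was −0.0123. Gabrb2 and Gabrb1 were also lower there in 3 of 3 plate codes, but in 384-well plates the values labelled Ehmt1delta/+ were the higher ones (9.56 against 8.26 RPKM for Gabrb2, 4.45 against 4.23 RPKM for Gabrb1).

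In inhibitory neurons the differences lay between −0.50 and 0.27, with SE of 0.20 to 0.32 and adjusted p of at least 0.899. Gabrb1 was 11.7 in WT and 5.91 RPKM in Ehmt1delta/+ in 96-well plates, lower in 3 of 3 plate codes, but 3.19 and 3.13 RPKM in 384-well plates. Gabra2 was nearly equal in 96-well plates (11.6 and 11.3 RPKM) and higher in Ehmt1delta/+ in 384-well plates (4.18 and 6.30 RPKM). For Gabra3 the values were 8.69 and 7.89 RPKM in 96-well plates, lower in Ehmt1delta/+ in 3 of 3 plate codes, and 3.37 and 5.42 RPKM in 384-well plates. With all 6 pools in the fit, the difference was −0.0308 for Gabrb1 in place of −0.50, 0.62 for Gabra2 and 0.58 for Gabra3, none of them called. Gabrb2 was higher in Ehmt1delta/+ in 96-well plates (22.5 and 27.2 RPKM, higher in 3 of 3 plate codes) and lower in 384-well plates (10.5 and 8.48 RPKM). Both formats gave the same direction for 2 of 7 members, Gabrb1 and Gabrd (0.07 in each format for Gabrd, with −1.003 to 2.103 over the plate codes). The genotype difference was also compared between the classes, and the largest value was that of Gabra2 (0.54 ± 0.21 higher in inhibitory neurons, adjusted p = 0.899 by limma; 0% of 23135 genes called, 5.39% at an unadjusted p under 0.05).

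No member passed between the pools with the induced transgene and those without either. Of 22850 genes in excitatory and 22158 in inhibitory neurons, 0% were called by limma (3.27% and 4.67% at an unadjusted p under 0.05). The contrast includes the Cre driver if the labels hold. Ehmt1 RNA was 18.7 and 20.3 RPKM in excitatory neurons of 384-well WT and iTg. It was 30.6 and 34 RPKM in those of 384-well Ehmt1delta/+ and Ehmt1delta/+; iTg. In inhibitory neurons the values in the same order were 21.9, 22, 36.9 and 33.5 RPKM. Induction of the transgene in these nuclei was not tested. Differences lay between −0.25 and 0.16 in excitatory neurons (SE 0.16 to 0.27) and between −0.35 and 0.24 in inhibitory neurons (SE 0.23 to 0.48), with adjusted p of at least 0.974. In excitatory neurons, Gabra4 was 8.42 and 11.3 RPKM in Ehmt1delta/+ without and with the induced transgene, and 9.90 and 7.68 RPKM in WT and iTg. Gabrd was lower with the transgene in both backgrounds (27.4 to 24.7 RPKM in WT, 28.4 to 22.2 RPKM in Ehmt1delta/+; −0.25 ± 0.17, adjusted p = 0.985). Gabra3 was 0.16 higher in each background in excitatory neurons and lower in both in inhibitory neurons. Since 384-well WT had a plate code of its own, transgene and plate code cannot be told apart in the WT background.

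**Figure D5:**
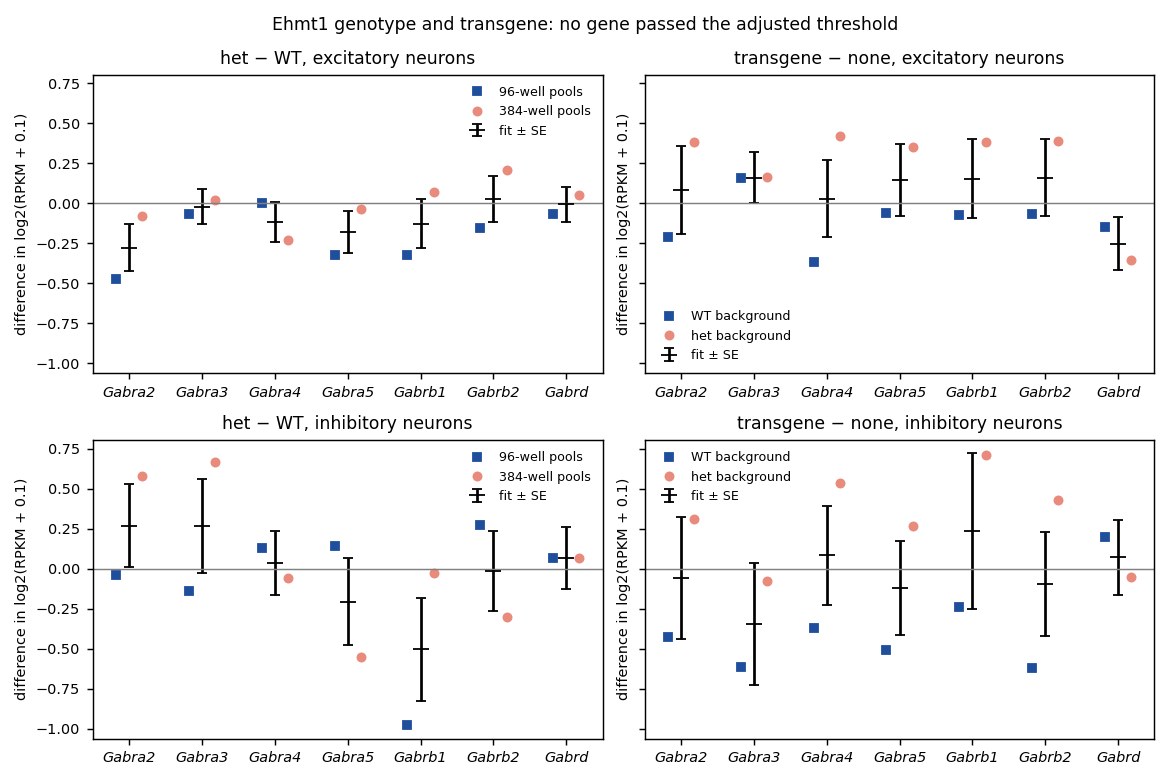
Difference in log2(RPKM + 0.1) (y axes) for Ehmt1delta/+ against WT (left) and induced transgene against none (right) in excitatory (top) and inhibitory neurons (bottom), with the limma estimate ± SE in black and the values within each plate format or Ehmt1 genotype as coloured symbols. Symbols of the same gene often lie on opposite sides of 0, and no gene passed the adjusted threshold.

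Other genes around the receptor were taken from lists of 12 further subunits, 19 scaffold, assembly and trafficking genes, and 5 genes of GABA-B receptors and chloride export. Between the neuron classes, 4 of the 12 subunits passed the filter on low values, of which 1 was higher and 2 were lower in inhibitory neurons, where 44% of all genes tested were called and 21.1% were called lower. Of the 19 scaffold and trafficking genes, 5 were higher and 1 was lower in inhibitory neurons (median difference 0.01, against 0.02 over all genes tested). These 6 of 19 are a smaller share than the 44% of all genes called. Gphn, which encodes the inhibitory scaffold gephyrin, was higher in 6 of 6 pools (33.3 ± 2.59 against 23.8 ± 1.79 RPKM, 0.48 ± 0.06, adjusted p = 0.000680 by limma). Slitrk3, a synaptic adhesion molecule of inhibitory synapses, was also higher (21.6 ± 3.10 against 13.9 ± 1.35 RPKM), as were Hap1 (66.1 ± 29.4 against 38.8 ± 16 RPKM) and Kif5a (53.6 ± 12.5 against 45.4 ± 10.03 RPKM), which take part in transport of the receptor. Lhfpl4, needed for receptor clustering, was at 12.6 ± 3.08 and 9.90 ± 1.53 RPKM. Shisa7, a receptor-associated transmembrane protein, was lower (53.8 ± 6.57 against 66.5 ± 5.12 RPKM). Nlgn2, the neuroligin of inhibitory synapses, was at 37.6 ± 11.8 and 37.8 ± 13 RPKM and did not pass.

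Of the 5 genes of GABA-B receptors and chloride export, Gabbr1 (43.5 ± 4.41 against 52.3 ± 1.76 RPKM) and Gabbr2 (40.3 ± 8.04 against 49 ± 5.85 RPKM), both subunits of the metabotropic GABA-B receptor, were lower in inhibitory neurons. Kctd8, an auxiliary GABA-B subunit, was higher (4.59 ± 0.820 against 0.813 ± 0.0730 RPKM, 2.35 ± 0.10, adjusted p = 5.90e-06 by limma). Slc12a5, the neuronal chloride exporter, was at 84.4 ± 21 and 96.5 ± 24.4 RPKM and missed the threshold (−0.19 ± 0.07, adjusted p = 0.0548), and Kctd12 stayed below 1 RPKM. No gene of these lists was called for genotype or transgene in either class.

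Across 24 points, the 4 cell classes in 6 pools, and 22589 genes of at least 1 RPKM on average, the genes with the most similar profile were named for each member by Pearson's r of log2(RPKM + 0.1). Each point is shared with all other genes of its pool, its depth and its plate format, and the contrast of neurons with glia dominates these values. Among the closest were Lrfn5, Rapgef4os2 and Cntn4 for Gabra2 (r = 0.98 each), Faxc and Rgs7 for Gabra3 (0.98 each), and Grin2b, Kcnk2 and Npy1r for Gabra4 (0.97 to 0.98). Gabra5 was nearest to Hecw1 (0.98), Erc2 and AI593442 (both 0.96). For the β genes, Epha7 and Kcnj6 (both 0.97) were among the closest to Gabrb1, and Cntnap5a, Gpc6 and Kcnt2 (0.97 each) were the closest to Gabrb2. Gabrd was nearest to Plekha7 (0.96), Slc9a5 (0.96) and Sfxn3 (0.95).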

How the data were processed

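Nuclei from the cortex of 3 mice per genotype were sorted into 96- or 384-well plates and sequenced by RamDA-seq. The authors trimmed reads with Fastq-mcf, mapped them to mm10 with HISAT2 (2.0.4 per the submitters' processing notes), counted them per gene with featureCounts (Subread 1.5.0), and deposited RPKM values in 1 table per plate format, already filtered to nuclei of quality and with cell types set on clusters. Values above 0 were whole hundredths of a read (100%), and 20.1% to 38.5% per pool and cell type were not whole reads (tolerance 0.001), so no count model was used. Read totals per nucleus were recovered from these steps.

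Genes were matched by identifier (52256 with a symbol), with coordinates of GENCODE M21 on the same build; promoters were found for 6 of 7 members in RefSeq. The members and lists were chosen with earlier results of these data known. Some genes that the naming rule takes are not reported here. Named were the members, class and subclass markers, the 4 genes of each list with the highest mean and any called for genotype or transgene, and the 3 most alike genes per member, passing over predicted genes; Gphn, Slitrk3, Lhfpl4 and Kctd12 were added after their values were seen.

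RPKM was averaged per pool and class, and log2(mean + 0.1) was tested with limma 3.58.1 (R 4.3.3) over all genes above 0 in at least 10% of nuclei of 1 compared class or group in all its pools, with Benjamini-Hochberg adjustment at 0.05; all 7 members passed this filter. This scale understates differences of low genes. The pool was a block for comparisons within neurons, since both classes came from the same mice, and the plate format for Ehmt1delta/+ against WT (4 pools); the transgene fit had 6 pools with format, genotype and transgene as terms. An exact sign-flip test over 6 pools (SciPy 1.17.1) was added for the classes. Shares were thinned to the percentile 10 of neuron reads, 291080 reads in 96-well plates (52 neurons left out) and 181913 in 384-well plates (115 left out). Intervals and limits of 0 cover counting error only. Doublets were not called. The alternatives tried were other pseudocounts (1, 0.01), no filter, stricter class and subclass rules, log values per nucleus, median scaling, other sets of pools, no block, and limma with trend and robust.

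On simulated data with 50 genes changed per size, limma called 15 at a log2 difference of 0.5 and 43 at 1 between the classes, and for Ehmt1delta/+ against WT 7 and 50 in excitatory and 0 and 5 in inhibitory neurons. For the transgene it called 8 at a log2 difference of 1 in excitatory and 0 in inhibitory neurons, and 49 and 24 at 2. For Ehmt1delta/+ against WT, 44 of 23580 unchanged genes were also called in excitatory and 43 of 23042 in inhibitory neurons. The fits for that contrast had 1 residual degree of freedom.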

Additional observations from a re-analysis of the deposited data

How the results depend on the processing

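Differences between inhibitory and excitatory neurons (log2, adjusted p by limma) kept their side of the threshold for Gabra5 under every alternative that gave a test. Gabra4 lost its call with no filter (−0.21, p = 0.0678), with the stricter class rule (−0.18, p = 0.0713) and in 384-well pools only (−0.23, p = 0.134), and lay between −0.24 and −0.18 with 1 pool left out. Leaving out 1 pool, Gabra3 lay between 0.13 and 0.41 and Gabrb2 between −0.0320 and 0.10. Gabrb2 was −0.0446 in 384-well pools only and −0.27 with log values averaged per nucleus, which gave −0.49 for Gabra2 and −0.88 for Gabrd, all 3 called lower. Of all 22422 genes tested, 6115 were called lower with these log values, against 4736 in the main test. Gabra2 lay between −0.32 and −0.12 with 1 pool left out. Gabrd was called with trend and robust (0.19, p = 0.0400). Without the replicate block, that is, the pool, Gabra4 (−0.21, p = 0.678) and Gabrb1 (−0.42, p = 0.574) lost their calls, 4572 genes were called in place of 9876, and 8 member tests of the subclasses in place of 17 (7 kept, 1 gained). With a pseudocount of 1 the 17 were kept and 7 gained, while calls over all genes rose in every subclass. Genes called lower went from 562 to 864 in Sst nuclei and from 1153 to 1552 in Lamp5 nuclei. Without the 2 nuclei with precursor markers, an alternative chosen after seeing the data, Gabra4 lost its class call (−0.20, p = 0.0630) and Gabrb2 in inhibitory Ehmt1delta/+ against WT turned to 0.00752.

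For Ehmt1delta/+ against WT no alternative gave a call. In excitatory neurons, log values per nucleus turned Gabra3 to 0.0375, Gabrb2 to −0.00993 and Gabrd to 0.0223, and all 6 pools turned Gabra4 to 0.11, Gabra5 to 0.0087 and Gabrb1 to 0.0914, and moved Gabra2 from −0.28 to −0.0123 and Gabrb2 from 0.03 to 0.24. In inhibitory neurons, they turned Gabra4 to −0.12 (log values), and Gabrb2 to 0.24 and Gabrd to −0.0159 (all 6 pools), which moved Gabrb1 from −0.50 to −0.0308, Gabra2 to 0.62 and Gabra3 to 0.58. A leading marker at least 2 times the next turned uncalled subclass differences for Gabra3 in Cux2 (0.0582) and Fezf2 (−0.0232), Gabrd in Rorb (−0.44), and Gabrb1 (0.15) and Gabrb2 (−0.0474) in Foxp2 nuclei, and kept 15 of 17 calls. Without the 96-well WT pool, an alternative chosen after seeing the data for subclasses, Gabrd in Rorb was −0.0261, and 13 of 17 calls were kept. The causes of these changes were not tested. With 4 or 6 pools, log2 differences of 0.5 were mostly missed for genotype and transgene in the simulated data, which had normal noise at the fitted spread.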
